A study of Mus musculus with 20 samples.

Results

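The 10 genes described here, H2-K1, H2-D1, B2m, Tap1, Tap2, Tapbp, Psmb8, Psmb9, Psmb10 and Nlrc5, encode the core of the MHC class I antigen presentation machinery. They were taken by name from the table of 35204 genes, and all 10 were found there and passed the filter on low counts. The choice was made with earlier results of these data known. They were followed in RNA from the distal ileum of 20 female C57BL/6 mice with no engineered allele named, which were 7 weeks old when the experiment started. Specific pathogen-free (SPF) mice were fed control diet (CD, 5 mice) or tryptophan-deficient diet (TDD, 5 mice) for 3 weeks. The other 10 mice received the same diets, 5 mice on each, together with a cocktail of 5 antibiotics (ABX), namely ampicillin, vancomycin, metronidazole, neomycin and gentamycin, in the drinking water (CD+ABX and TDD+ABX). Both were amino acid diets that differed in tryptophan, the antibiotics served to remove the microbiota, and a washed 0.5 cm piece of ileum was taken from each mouse. In such bulk tissue, fewer cells of a type and less RNA per cell cannot be told apart.

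MHC class I molecules show short peptides from inside the cell to CD8 T cells. Proteasomes cut proteins into peptides, the TAP transporter carries these into the endoplasmic reticulum, tapasin helps to load them, and a heavy chain paired with beta-2 microglobulin takes them to the cell surface. Interferons raise the transcription of most of these genes and exchange the constitutive catalytic subunits of the proteasome for inducible ones, and in the intestine both epithelial and immune cells use the pathway.

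Of the 10 genes, 7 lie in the MHC region of chromosome 17 in GENCODE M21 on GRCm38. H2-K1 spans chr17:33996017-34000347 and H2-D1 spans chr17:35262730-35267499. Tapbp spans chr17:33915899-33929292. Psmb9 (chr17:34181987-34187764), Tap1 (chr17:34187553-34197225), Psmb8 (chr17:34197721-34201454) and Tap2 (chr17:34203527-34216321) are neighbours. Outside the MHC region, B2m spans chr2:122147686-122153083, Nlrc5 chr8:94434356-94527272 and Psmb10 chr8:105935735-105938444.

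The promoters are shown because NLRC5, the class I transactivator, is known to act through a compact module in class I promoters that includes an X2 box, which resembles a cyclic AMP response element, and a Y box. RefSeq promoters (GRCm38.p6, 250 bases before to 50 bases after a start site) were on hand for 8 of the 10 genes, and Tap2 and Nlrc5 had no entry. The X2 box core was searched as TGACG and the Y box as CCAAT, each on both strands. TGACG stood in 5 of the 8 promoters and in 20.8% of the 32851 promoters of the table, and CCAAT stood in 6 of the 8 and in 37.4% of the table. In H2-K1, H2-D1 and B2m, TGACG was followed after exactly 20 bases by ATTGG, the Y box read from the other strand. This spaced pair, a pattern chosen after the matches were seen, stood in 31 promoters, or 0.0944% of the table. Among 13 other class I or class I-like genes with a promoter, 1 held it, H2-M3, which presents formylated peptides. The 30 bases of the pair follow, 5′ to 3′ along the strand of the gene, with both motifs in capitals.
H2-K1: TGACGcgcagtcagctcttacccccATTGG
H2-D1: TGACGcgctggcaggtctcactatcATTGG
B2m: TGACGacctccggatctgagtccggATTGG
H2-M3: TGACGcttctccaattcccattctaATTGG

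These stretches lie at chr17:34000359-34000388 (minus strand), chr17:35262993-35263022, chr2:122147609-122147638 and chr17:37270188-37270217 (plus strand for the last 3). Between the motifs, H2-K1 and H2-D1 were identical at 13 of 20 bases, whereas H2-K1 and B2m were identical at 3. In H2-D1 the pair lies inside the 5′ UTR of the GENCODE transcript, whose start is placed further upstream than in RefSeq. A longer stretch is shown for B2m (chr2:122147437-122147685, plus strand), the only one of the 8 promoters that also held the core of an interferon-stimulated response element, searched as GAAANNGAAA on both strands and found in 3.44% of the table. Capitals mark that core, the X2 box core and the Y box.
B2m: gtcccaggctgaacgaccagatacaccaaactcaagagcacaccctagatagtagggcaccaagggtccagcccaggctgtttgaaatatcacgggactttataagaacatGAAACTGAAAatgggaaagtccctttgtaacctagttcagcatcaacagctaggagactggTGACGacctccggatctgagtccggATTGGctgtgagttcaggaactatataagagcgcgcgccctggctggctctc

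The gamma-activated site, searched as TTCNNNGAA, stood in 8.3% of the table and in 1 of the 8 promoters, that of Psmb8. RefSeq places the starts of Psmb9 and Tap1 head to head with 225 bases between them, and their 2 promoter windows share 275 bases. Each match is a description of letters in these windows. An exact search passes over elements that differ from the letters searched, so a promoter without a match may still hold such an element.

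Total counts ranged from 36676963 to 58662617 per mouse, and no 2 mice had identical counts. Pearson r between the log2 CPM of any 2 mice was 0.9599 to 0.9943. No sequencing batch was given in the sources used here. Levels are CPM, counts scaled to the size of the library after TMM normalization, and values per mouse are listed for mice 1 to 5 of a group in that order. Changes are log2 fold changes from edgeR's quasi-likelihood test, and a gene is said to have passed where q, its p-value adjusted by Benjamini-Hochberg over the 16306 genes tested, was under 0.05. The counts are kallisto estimates, in which a read shared by several transcripts is divided among them. Of the 31-base words of the most abundant transcript, 23.3% in H2-K1 and 27.7% in H2-D1 were shared with transcripts of other genes, mainly other class I heavy chains, so the division of reads among these paralogs is uncertain. In Tap1, 7.73% of the words were shared, mostly with Psmb9, which overlaps it on the opposite strand, and whether the counts used strand was not given in the sources used here. Shares of 13.8% to 23.9% in Psmb9, Psmb8, Tap2 and Tapbp were with other genes, among them Tap1 for Psmb9 and Tap2, the predicted gene Gm20496 for Psmb8 and Tap2, and the predicted gene Gm19412 and Ilf2 for Tapbp. No words of B2m, Psmb10 or Nlrc5 were shared.

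Levels of different genes were set side by side per transcript length, as TPM, which scales for length and library size. B2m was the most abundant, at 2783 ± 693 TPM in CD mice (SD, n = 5). H2-K1 followed at 1154 ± 313 TPM and H2-D1 at 621 ± 170.3 TPM. Then came Psmb10 at 212 ± 11.8 TPM, Tapbp at 127 ± 20.7 TPM and Psmb8 at 111 ± 25.8 TPM. Psmb9 stood at 48.4 ± 9.7 TPM, Tap1 at 38.6 ± 10.8 TPM and Tap2 at 31.7 ± 5.05 TPM, and the lowest was the regulator Nlrc5 at 8.31 ± 2.48 TPM (SD, n = 5 each). Between neighbours in this order, the ranges over CD mice overlapped for H2-K1 and H2-D1, Tapbp and Psmb8, Psmb9 and Tap1, and Tap1 and Tap2. Within single mice, Tapbp lay above Psmb8 in 4 of 5 CD mice, and in the other 3 of these pairs the first gene lay above the second in 5 of 5.

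The CD mice were spread more widely than the other groups in most of these genes, and CD mice 2 and 5 formed the ends. CD mouse 2 was the lowest of the CD mice in 10 of 10 genes and CD mouse 5 the highest in 10 of 10. CD mouse 2 also had the lowest summed level of 6 epithelial markers, 7711 CPM against 10736 to 12281 CPM in the other CD mice. Its sum of 6 fibroblast and smooth muscle markers was the highest, at 2084 CPM, and that of CD mouse 5 the lowest, at 534 CPM. CD mouse 5 had the highest sum of 6 T and NK cell markers, 80.9 CPM against 20.8 to 48.4 CPM. B cell markers (6 genes) varied most, with sums of 4.46 to 98.8 CPM in CD, 4.59 to 154 CPM in TDD, 2.34 to 7.75 CPM in CD+ABX and 3.74 to 105 CPM in TDD+ABX mice. The part of these marker levels in the results was not tested. Among the CD+ABX mice, mouse 1 was the lowest in 10 of 10 genes.

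The first comparison addressed the effect of tryptophan deficiency with an intact microbiota. In SPF mice, 6 of the 10 genes passed and all 6 were lower on TDD, namely Psmb9, Tap1, Nlrc5, Psmb8, B2m and Psmb10. Over all genes tested, 14.4% passed, and 7.71% passed as lower. The median log2 fold change of the 10 genes was -0.50, against 0.01 over all genes tested, and all 10 estimates lay below 0. None reached a 2-fold change, which 0.993% of all genes did as lower genes that passed.

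All 3 inducible subunits of the proteasome fell on TDD. Psmb9, which replaces the caspase-like subunit, was measured at 34.8, 29.3, 39.2, 43.4 and 54.6 CPM in the CD mice and at 30.6, 23, 20, 23.4 and 21.9 CPM in the TDD mice. Only CD mouse 2 lay within the range of the TDD mice. The difference was 41.0% (log2 fold change -0.76, SE 0.14, q = 0.00129, edgeR). Psmb10, which replaces the trypsin-like subunit, stood at 129.9, 118, 131, 138 and 154 CPM on CD and at 132, 96.6, 74.6, 88.5 and 84.2 CPM on TDD. Here TDD mouse 1 lay among the CD mice and the other 4 TDD mice below them all (log2 fold change -0.50, SE 0.12, q = 0.00832, edgeR). Psmb8, which replaces the chymotrypsin-like subunit, stood at 89.9, 54.9, 76.3, 95.2 and 113 CPM on CD and at 71, 65, 46.3, 65 and 55.1 CPM on TDD. The 4 CD mice other than mouse 2 lay above every TDD mouse (log2 fold change -0.51, SE 0.15, q = 0.0344, edgeR).

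Among the genes for peptide transport and loading, Tap1 fell. Tap1 encodes 1 of the 2 chains of the peptide transporter. Its CPM was 65.5, 47.7, 64.6, 78.2 and 104 in the CD mice and 46.9, 41.2, 39.9, 49.3 and 46.6 in the TDD mice. Again only CD mouse 2 lay within the TDD range, and the difference was 37.9% (log2 fold change -0.69, SE 0.15, q = 0.00498, edgeR). Tap2, the other chain, had 57.5, 42.6, 55.9, 62.4 and 67.3 CPM on CD and 54.8, 46.1, 43.1, 46.7 and 43.5 CPM on TDD. Every TDD mouse lay above CD mouse 2 and below the other CD mice, and the change did not pass (-0.29, SE 0.11, q = 0.0803, edgeR). Tapbp, which encodes tapasin, had 219.5, 148, 197, 222 and 233 CPM on CD and 215, 175, 168, 175 and 158 CPM on TDD. CD mouse 2 lay below every TDD mouse and TDD mouse 1 among the other CD mice, with a log2 fold change of -0.19 (SE 0.12, q = 0.328, edgeR).

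Of the genes for the class I molecule itself, the light chain passed and the heavy chains did not. B2m, the light chain, stood at 1545, 852, 1476, 1829.6 and 1949 CPM in the CD mice and at 1144, 1088, 1026, 1158 and 1005 CPM in the TDD mice. CD mouse 2 was below all 5 TDD mice and the other 4 CD mice were above them (log2 fold change -0.50, SE 0.16, q = 0.0408, edgeR). H2-K1, a classical heavy chain, stood at 1254, 684, 1246, 1539.8 and 1679 CPM on CD and at 1025, 948, 866, 1001 and 912 CPM on TDD. H2-D1, the other classical heavy chain of this strain, stood at 843, 476, 799, 1073 and 1142 CPM on CD and at 707, 622, 580.2, 734 and 626 CPM on TDD. Both showed the same arrangement as B2m, with CD mouse 2 below and the other CD mice above every TDD mouse. The log2 fold changes were -0.43 for H2-K1 (SE 0.17, 95% interval -0.79 to -0.07, q = 0.0967, edgeR) and -0.41 for H2-D1 (SE 0.17, 95% interval -0.76 to -0.05, q = 0.115, edgeR).

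Nlrc5, the transactivator of class I genes, was measured at 15.3, 12.9, 18.1, 23.2 and 27.5 CPM in the CD mice and at 8.16, 12.1, 11.4, 13.8 and 16.5 CPM in the TDD mice. TDD mice 4 and 5 lay within the CD range and the other 3 below it. The change was -0.64 (SE 0.21, q = 0.0496, edgeR), just inside the threshold.

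The count of passing genes depended on single mice. It was 9 without CD mouse 2, when 10.8% of all genes passed as lower, and 3 without CD mouse 4, CD mouse 5 or TDD mouse 3, when 5.51% to 6.37% did. With all mice the groups did not separate in any of the 10 genes, whereas 4.9% of all genes separated as lower. Without CD mouse 2, left out here after its values were seen, TDD mice lay below all CD mice in 7 of 10 genes, against 1633 of all 16306 genes. Macrophage and dendritic cell markers moved with the diet. Their summed level over 6 markers was 102 to 136 CPM on CD and 56.7 to 95.9 CPM on TDD, with 3 of 6 markers lower and none at 0. For T and NK cells, 1 of 6 markers was lower, with sums of 20.8 to 80.9 CPM on CD and 19.7 to 27.6 CPM on TDD. For the 6 epithelial markers, 0 of 6 passed, with sums of 7711 to 12281 CPM on CD and 10063 to 11758 CPM on TDD. Their part in the class I result was not tested.

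**Figure D1:**
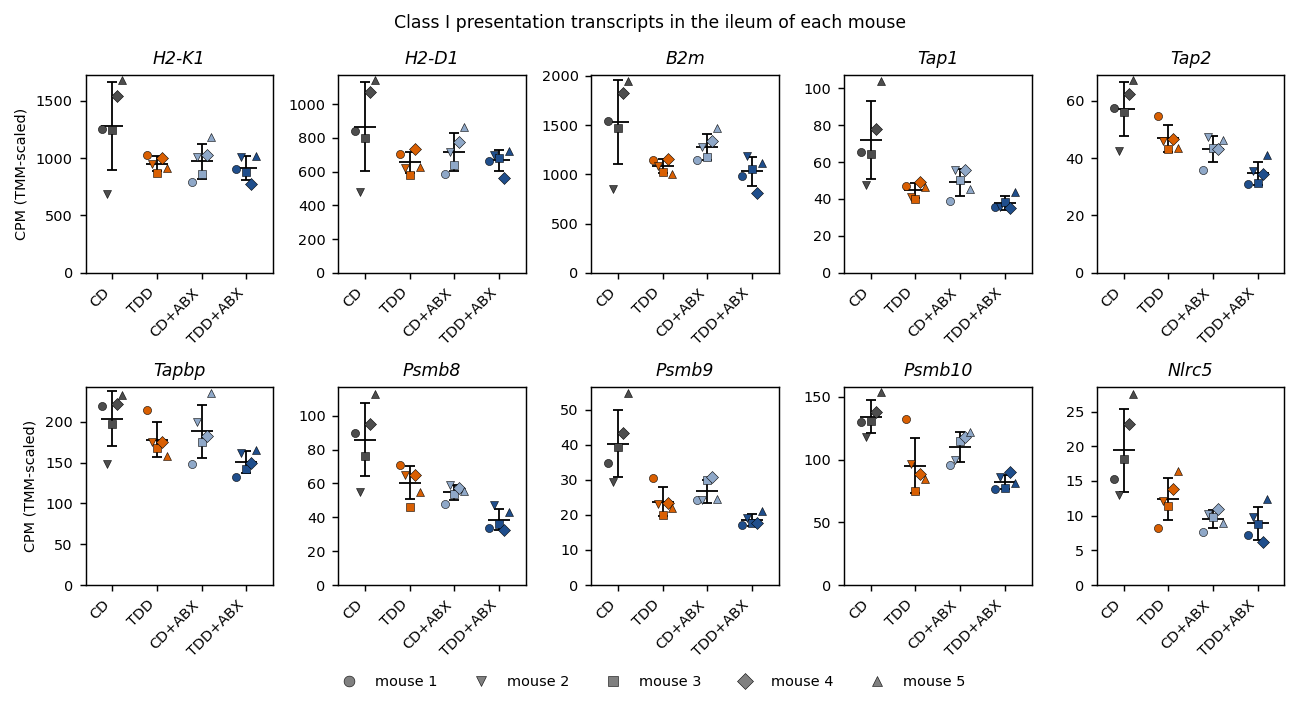
CPM (TMM-scaled, linear axis from 0) of each of the 10 genes in each of the 20 mice. Symbols give the mouse number within a group, and bars the group mean and SD (n = 5). CD mouse 2 is the lowest and CD mouse 5 the highest CD mouse in all 10 panels, and the mean of TDD+ABX mice is the lowest in every panel but that of H2-D1.

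The second comparison put the same diets side by side in ABX-treated mice. None of the 10 genes passed with edgeR's quasi-likelihood test, in a comparison where 1.64% of all genes passed. DESeq2 called 2, where 1.95% of all genes passed as lower with DESeq2. With edgeR, 6 of the 10 had an unadjusted p under 0.05, as did 14.7% of all genes. All 10 estimates again lay below 0, with a median of -0.32 against 0 over all genes tested. The immunoproteasome genes separated by diet nonetheless. Psmb8 stood at 47.8, 59.1, 53.9, 57.4 and 55.6 CPM in CD+ABX mice and at 33.7, 47.4, 36.2, 32.7 and 43.1 CPM in TDD+ABX mice. Psmb9 stood at 24.2, 24.3, 29.9, 30.8 and 24.5 CPM and at 17.1, 19.1, 17.6, 17.6 and 21.2 CPM in the same order of groups. Psmb10 stood at 95.5, 99.6, 115, 118 and 122 CPM and at 76.3, 86, 77.3, 90.2 and 81.4 CPM. In these 3 genes every TDD+ABX mouse lay below every CD+ABX mouse, a separation that 2.43% of all genes showed as lower. The log2 fold changes were -0.50 for Psmb8 (SE 0.16, q = 0.112), -0.53 for Psmb9 (SE 0.14, q = 0.0565) and -0.42 for Psmb10 (SE 0.12, q = 0.0772, all edgeR). The 2 SPF groups enter the estimate of the spread here. When the 2 ABX groups were fitted alone, 3 genes passed, and without CD mouse 2 or TDD mouse 1, 2 passed, where 0.988% to 1.48% of all genes passed as lower.

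The other 7 genes overlapped between the diets under ABX. Tap1 stood at 38.7, 55.6, 50.2, 55.5 and 45.3 CPM in CD+ABX mice and at 35.8, 35.8, 38.1, 34.9 and 43.9 CPM in TDD+ABX mice. Tap2 stood at 35.9, 47.3, 43.5, 43.1 and 46.2 CPM and at 31, 35.5, 31.4, 34.6 and 40.9 CPM. Tapbp stood at 148, 200, 175, 183 and 236 CPM and at 133, 162, 142, 149.6 and 166 CPM. In all 3 only CD+ABX mouse 1 lay within the range of the TDD+ABX mice, the other 4 CD+ABX mice lay above every one of them, and the log2 fold changes were -0.38, -0.32 and -0.32 (SE 0.15, 0.11 and 0.12). B2m stood at 1148, 1273, 1175, 1341 and 1470.2 CPM in CD+ABX mice and at 984, 1190.1, 1056, 808 and 1113 CPM in TDD+ABX mice, a log2 fold change of -0.31 (SE 0.16) in which only TDD+ABX mouse 2 reached the CD+ABX range. H2-K1 stood at 789.7, 1010.4, 861, 1028 and 1181 CPM and at 903, 1006, 876, 770 and 1016 CPM. H2-D1 stood at 584, 717, 641, 775 and 866 CPM and at 664, 699, 679, 563 and 724 CPM. Both heavy chains were spread over largely the same range on the 2 diets, with log2 fold changes of -0.09 (95% interval -0.45 to 0.27) and -0.11 (95% interval -0.46 to 0.25). Nlrc5 stood at 7.67, 10.3, 9.83, 10.9 and 8.88 CPM and at 7.25, 9.73, 8.81, 6.23 and 12.4 CPM, with the TDD+ABX mice on both sides of the CD+ABX mice and a log2 fold change of -0.10 (95% interval -0.56 to 0.35).

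Whether the effect of the diet differed between SPF and ABX-treated mice was tested directly with an interaction term. None of the 10 genes passed that test with edgeR or with DESeq2, and 0 had an unadjusted p under 0.05, where 8.87% of all genes had one and 0.0368% passed. The largest estimate was that of Nlrc5, at 0.54 (SE 0.30, 95% interval -0.10 to 1.18, q = 0.64, edgeR). For Psmb8 the 2 diet effects were nearly equal, with a difference of 0.00 and a 95% interval of -0.47 to 0.47. The larger number of genes called in SPF mice is thus not shown to be a difference between the 2 settings.

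Antibiotics were compared with their absence on each diet. These comparisons use the same mice as those by diet, so the 2 sets of values are not independent. On CD, 5 of the 10 genes passed, all lower with ABX, where 7.37% of all genes passed as lower and 12.6% in either direction. Nlrc5 changed most, with a log2 fold change of -1.03 (SE 0.21, q = 0.00456, edgeR), a 50.9% difference. Its CD+ABX mice, at 7.67 to 10.9 CPM, all lay below its CD mice, at 12.9 to 27.5 CPM, a separation that 5.88% of all genes showed as lower. It was the only one of the 10 genes to reach 2-fold, as 1.67% of all genes did as lower genes. Psmb8 (-0.65, q = 0.0102), Psmb9 (-0.59, q = 0.00878), Tap1 (-0.55, q = 0.0205) and Tap2 (-0.40, q = 0.0184, all edgeR) also fell. In these 4 genes the groups overlapped through CD mouse 2. H2-K1 (-0.39, q = 0.136), Psmb10 (-0.28, q = 0.125), H2-D1 (-0.27, q = 0.325), B2m (-0.26, q = 0.328) and Tapbp (-0.11, q = 0.625, all edgeR) did not pass. Without CD mouse 2, 8 genes passed, and without CD mouse 5 or CD+ABX mouse 1, 3 passed, where 9.02%, 5.21% and 6.01% of all genes passed as lower.

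On TDD, 2 of the 10 genes passed as lower with ABX, where 8.22% of all genes did and 15.4% passed in either direction. Psmb8 fell from 46.3 to 71 CPM in the TDD mice to 32.7 to 47.4 CPM in the TDD+ABX mice, with an overlap of 1 mouse from each group (log2 fold change -0.65, SE 0.16, q = 0.0107, edgeR). Tap2 fell from 43.1 to 54.8 CPM to 31 to 40.9 CPM with no overlap, as 5.05% of all genes did (-0.43, SE 0.11, q = 0.0128, edgeR). The estimates of H2-K1, H2-D1 and B2m lay between -0.07 and 0.03, with 95% intervals of -0.41 to 0.30, -0.33 to 0.38 and -0.41 to 0.26. Nlrc5 had a log2 fold change of -0.49 (SE 0.21, q = 0.13, edgeR). T and NK cell markers were lower with ABX on both diets, with 5 of 6 markers lower on CD and 3 of 6 on TDD and none at 0. Their summed level was 20.8 to 80.9 CPM in CD mice, 11.8 to 14.6 CPM in CD+ABX mice, 19.7 to 27.6 CPM in TDD mice and 9.26 to 19 CPM in TDD+ABX mice. The summed macrophage and dendritic cell markers were 67.9 to 83.3 CPM in CD+ABX and 61 to 68.6 CPM in TDD+ABX mice, with 3 of 6 lower by ABX on CD and 2 of 6 on TDD. The part of these markers in the class I result was not tested.

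**Figure D2:**
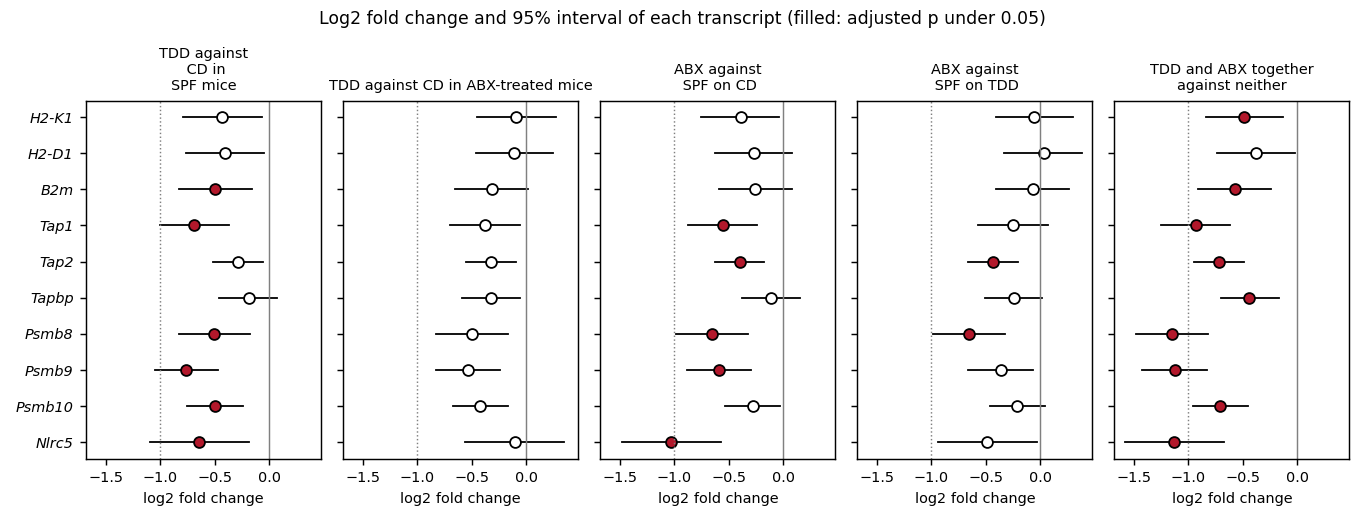
Log2 fold change (points) and 95% interval (lines) of each of the 10 genes in 5 comparisons; filled points passed at an adjusted p under 0.05 and the dotted line marks a 2-fold decrease. Filled points number 6, 0, 5, 2 and 9 from left to right, and the last comparison was added after the data were seen.

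To place the groups in order, 2 comparisons were added after the data were seen. They share mice with the comparisons above and are not independent of them. In mice that received both TDD and ABX against mice that received neither, 9 of the 10 genes passed as lower, where 11.5% of all genes did and 21.8% passed in either direction. Psmb8 (-1.15, SE 0.16, q = 6.05e-05), Nlrc5 (-1.13, SE 0.21, q = 0.00113) and Psmb9 (-1.12, SE 0.14, q = 2.59e-05, all edgeR) were 54.0% to 55.0% lower and reached 2-fold, as 1.88% of all genes did as lower genes. Tap1 (-0.93), Tap2 (-0.72), Psmb10 (-0.71), B2m (-0.57), H2-K1 (-0.49) and Tapbp (-0.44) followed, and H2-D1 did not pass (-0.38, q = 0.113, edgeR). In 6 of the 10 genes, Tap1, Tap2, Psmb8, Psmb9, Psmb10 and Nlrc5, the 2 groups did not overlap, against 6.84% of all genes. In the same comparison 5 of 6 T and NK cell markers (median -1.69) and 5 of 6 macrophage and dendritic cell markers (median -0.54) were lower. Of 6 epithelial markers 2 were higher, as 10.3% of all genes were. The part of these markers in the class I result was not tested. Between TDD mice without ABX and CD mice with ABX, none of the 10 genes passed with edgeR or with DESeq2, and 0 had an unadjusted p under 0.05, where 25.3% and 36.7% of all genes did. Their estimates ran from -0.24 for B2m to 0.39 for Nlrc5 (95% interval -0.07 to 0.84). Each of the 10 genes was thus highest on average in CD mice, with TDD mice and CD+ABX mice not separated by the test. TDD+ABX mice had the lowest mean in 9 genes and TDD mice in the tenth, H2-D1, at 654 ± 64 CPM against 666 ± 61.7 CPM (SD, n = 5).

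**Figure D3:**
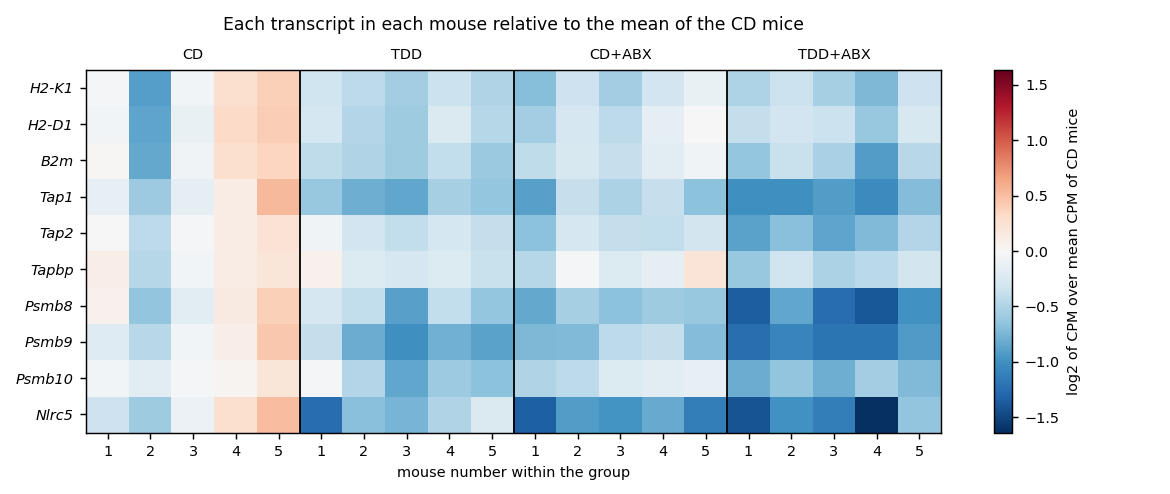
Log2 ratio of the CPM of each gene (rows) in each mouse (columns) to the mean of the 5 CD mice (colour, red above and blue below). The CD block ranges from blue in mouse 2 to red in mouse 5, and the rows of Psmb8, Psmb9, Tap1 and Nlrc5 are bluest in TDD+ABX mice.

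Each inducible proteasome subunit takes the place of 1 constitutive subunit, so the share of the inducible member in each pair was computed from TPM in every mouse. Shares were compared by 2-sided exact permutation tests over mice, adjusted over 12 comparisons, in which 5 against 5 mice allow no p below 0.00794. The share of Psmb9 in Psmb9 and Psmb6 was 18.4, 17.2, 20.3, 21.6 and 26% in CD mice and 17.6, 13, 11.9, 14 and 12.7% in TDD mice. With ABX it was 14, 14.7, 15.1, 16.3 and 13.6% on CD and 8.77, 10.8, 9.35, 9.98 and 11.8% on TDD. Only CD mouse 2 and TDD mouse 1 crossed between the diets in SPF mice, and no mice crossed in the other 3 comparisons. The means were 20.7 ± 3.43% in CD, 13.9 ± 2.22% in TDD, 14.7 ± 1.05% in CD+ABX and 10.1 ± 1.2% in TDD+ABX mice (SD, n = 5). All 4 differences passed, with an adjusted p = 0.0238 for the diet in SPF mice and adjusted p = 0.0136 for the other 3 (exact permutation test).

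The share of Psmb8 in Psmb8 and Psmb5 was 58.2, 43.9, 53.9, 60.5 and 63.1% in CD mice and 52.7, 52.7, 47.5, 54.8 and 50.8% in TDD mice. With ABX it was 44.3, 49.6, 44.7, 45.2 and 45.4% on CD and 33.1, 43.1, 37.8, 34.7 and 41% on TDD. TDD+ABX mice lay below all CD+ABX and all TDD mice, whereas CD and TDD mice overlapped. The difference by diet was -4.19 points in SPF mice (adjusted p = 0.294) and -7.89 points in ABX-treated mice (adjusted p = 0.0136, exact permutation test). That by ABX was -10.1 points on CD (adjusted p = 0.0519) and -13.8 points on TDD (adjusted p = 0.0136, exact permutation test). Psmb5 itself fell on TDD in SPF mice, from 49 ± 1.66 to 42.2 ± 3.13 CPM (SD, n = 5, log2 fold change -0.22, q = 0.00906, edgeR).

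The share of Psmb10 in Psmb10 and Psmb7 was 73.3, 72.1, 72.2, 75.7 and 73.7% in CD mice and 73.7, 64.7, 61, 64.3 and 63.2% in TDD mice. With ABX it was 66.5, 68, 71.9, 70 and 71.7% on CD and 56.5, 60.6, 56.8, 63.2 and 61.2% on TDD. All TDD mice but mouse 1 lay below every CD mouse, and mouse 1 lay among them. The means were 73.4 ± 1.46, 65.4 ± 4.88, 69.6 ± 2.37 and 59.7 ± 2.91% in CD, TDD, CD+ABX and TDD+ABX mice (SD, n = 5). The differences were -8.04 points by diet in SPF mice (adjusted p = 0.0476), -9.94 points by diet with ABX (adjusted p = 0.0136), -3.78 points by ABX on CD (adjusted p = 0.0136) and -5.68 points by ABX on TDD (adjusted p = 0.0476; exact permutation tests). In all, 10 of the 12 differences passed and all 12 were negative. These differences share mice, so they are not independent of each other and the tally is a description.

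**Figure D4:**
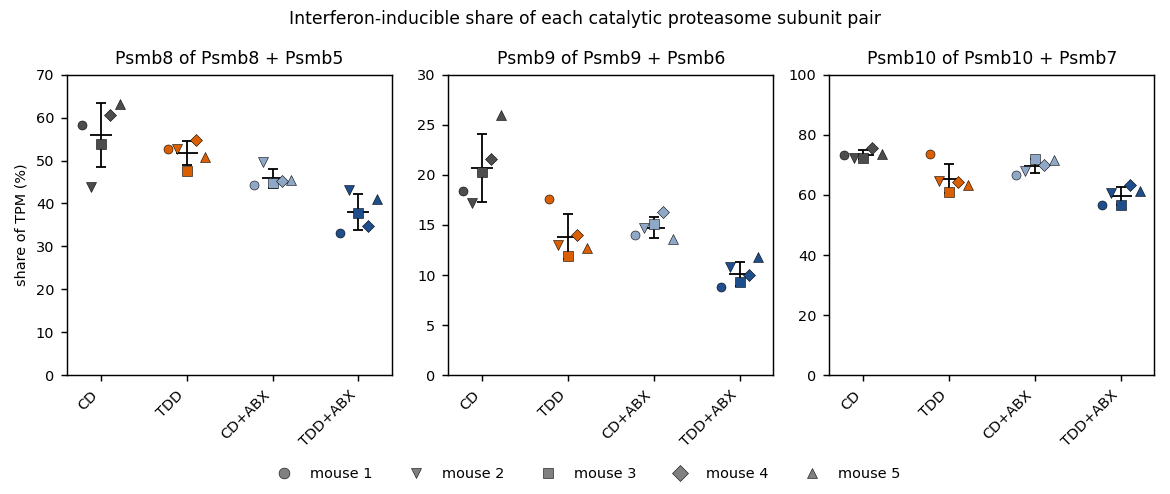
Share of TPM (percent, linear axes from 0 with a different top in each panel) held by the inducible subunit of each catalytic pair, in each mouse. Symbols give the mouse number and bars the mean and SD (n = 5). The share is highest in CD and lowest in TDD+ABX mice in all 3 panels, from 55.9 to 37.9% for Psmb8, from 20.7 to 10.1% for Psmb9 and from 73.4 to 59.7% for Psmb10 on average.

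Other genes of the pathway were followed as lists. Of 17 other class I and class I-like chains, 16 were tested and H2-M5 was below the filter. On TDD in SPF mice, 5 were lower and 0 higher, with a median of -0.25, where 7.71% of all genes passed as lower. H2-T10, a heavy chain that binds no peptide, fell from 6.26 ± 1.23 to 4.05 ± 0.474 CPM without overlap (SD, n = 5, log2 fold change -0.63, q = 0.00421, edgeR). Fcgrt, the neonatal receptor for IgG, which also pairs with B2m, fell from 60.4 ± 11.1 to 40.8 ± 7.38 CPM (SD, n = 5, log2 fold change -0.57, q = 0.007, edgeR). H2-T24 (-1.11, q = 0.0174), H2-Q4 (-0.36, q = 0.0328) and H2-T3, the thymus leukaemia antigen (-0.30, q = 0.0498, all edgeR), also passed. Under ABX, 0 of 16 passed by diet with edgeR or with DESeq2, and 3 had an unadjusted p under 0.05, as 14.7% of all genes had.

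With ABX on CD, 6 of the 16 chains were lower, with no overlap in any of the 6 and a median of -0.46. Over all genes, 7.37% passed as lower and 5.88% separated as lower. H2-Q6 fell from 36.3 ± 5.88 to 13 ± 1.8 CPM (SD, n = 5, log2 fold change -1.48, q = 0.000186, edgeR) and its near-identical neighbour H2-Q7 from 70.3 ± 10.6 to 26.2 ± 4.21 CPM (SD, n = 5, log2 fold change -1.42, q = 0.000373, edgeR). These Qa-2 genes share most of their sequence, so their division is uncertain. H2-T10 (-0.84, q = 0.000771), H2-Q4 (-0.59, q = 0.00212), H2-M3 (-0.66, q = 0.00419) and Fcgrt (-0.63, q = 0.0046, all edgeR) were the others. With ABX on TDD, 4 were lower, where 8.22% of all genes were. These were Cd1d1 (-0.77, q = 0.00415), which presents lipids, H2-M3 (-0.49, q = 0.0217), Fcgrt (-0.44, q = 0.029) and H2-Q6 (-0.60, q = 0.0428, all edgeR). Between TDD mice and CD+ABX mice, 4 of these chains differed, H2-Q6 (1.10), H2-Q7 (0.99), Cd1d1 (0.75) and H2-M3 (0.58) all being higher in TDD mice, as 13.7% of all genes were. All 6 B cell markers and 4 of 6 T and NK cell markers were higher in TDD mice in the same comparison, and their part was not tested.

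**Figure D5:**
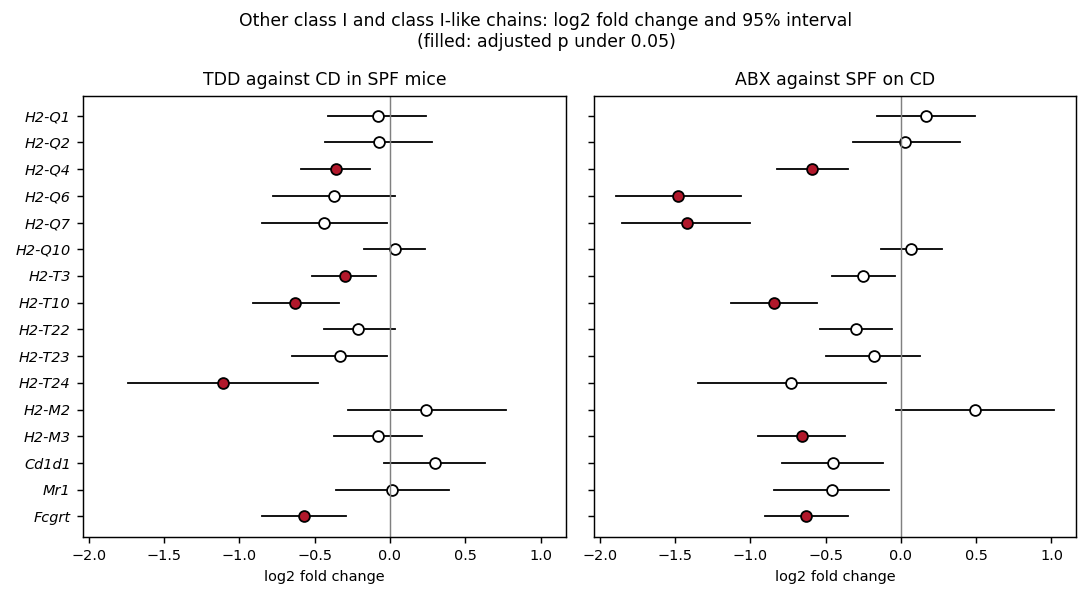
Log2 fold change (points) and 95% interval (lines) of 16 other class I and class I-like chains, for TDD against CD in SPF mice (left) and for ABX against SPF on CD (right); filled points passed at an adjusted p under 0.05. There are 5 filled points on the left and 6 on the right, all below 0, and H2-Q6 and H2-Q7 lie furthest from 0 on the right.

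Partners in peptide trimming and loading did not move in 1 direction. On TDD in SPF mice, 2 of 11 were lower and 2 higher, where 6.65% of all genes passed as higher. Erap1, the aminopeptidase that trims peptides in the endoplasmic reticulum, fell from 150 ± 15 to 117 ± 4.47 CPM without overlap (SD, n = 5, log2 fold change -0.36, q = 0.00113, edgeR). It was the only gene of the list to pass by diet under ABX (-0.27, q = 0.0366, edgeR), where 1.64% of all genes passed. Tapbpl, a tapasin-related peptide editor, was also lower (-0.28, q = 0.0324, edgeR). Hspa5, the chaperone BiP, was higher (0.40, q = 0.0404), as was the translocon subunit Sec61a1 (0.23, q = 0.0345, both edgeR). With ABX on CD, 6 of the 11 were higher, against 5.26% of all genes, namely Hspa5 (1.05, q = 8.64e-05), Calr (0.70, q = 0.000176), Pdia3 (0.46, q = 0.00243), Canx (0.33, q = 0.00679), Lap3 (0.62, q = 0.0325) and Sec61a1 (0.23, q = 0.0399, all edgeR). Hspa5, Calr, Pdia3 and Canx are general chaperones of the endoplasmic reticulum as well as helpers of class I folding. Ubd, an inducible ubiquitin-like modifier, was the 1 lower gene (-1.82, q = 0.0452, edgeR). It lay near the filter of 0.5 CPM, at 0.799 to 2.75 CPM in CD mice and 0.243 to 0.635 CPM in CD+ABX mice. With ABX on TDD, Calr was higher (0.30, q = 0.0357) and Ubd lower (-1.69, q = 0.0458, both edgeR). The groups overlapped for Ubd, at 0.778 to 4.18 CPM in TDD mice and 0.248 to 2.68 CPM in TDD+ABX mice.

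Of 8 genes for the constitutive catalytic subunits, activators and assembly of the proteasome, 3 were lower on TDD in SPF mice, where 7.71% of all genes were. These were Psmb5 (above), Psme1 (-0.32, q = 0.0212) and Psme2 (-0.28, q = 0.0428, both edgeR), the last 2 forming the interferon-inducible PA28 cap. None passed by ABX on CD with edgeR or DESeq2, with 1 of 8 at an unadjusted p under 0.05, as 26.5% of all genes had. On TDD 3 were higher with ABX, where 7.14% of all genes passed as higher, Psme3 (0.22, q = 0.0263), Psmb6 (0.16, q = 0.0283) and Psmb7 (0.18, q = 0.0386, all edgeR). None passed by diet under ABX with edgeR or DESeq2, with 4 at an unadjusted p under 0.05, as 14.7% of all genes had.

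Of 14 transcription factors of class I genes, 3 were lower and 0 higher on TDD in SPF mice, with a median of -0.12. Over all genes, 7.71% passed as lower. Irf1, a transactivator induced by interferon, fell on TDD in SPF mice from 175 ± 20.4 to 134 ± 19.4 CPM (SD, n = 5, log2 fold change -0.39, q = 0.0229, edgeR). Rfxank, a subunit of the RFX complex to which NLRC5 binds, fell by 0.35 on the log2 scale (q = 0.00444, edgeR). Another subunit of that complex, Rfx5, was lower with ABX on CD (-0.42, q = 0.0147) and on TDD (-0.36, q = 0.0306, both edgeR). It was the 1 gene of the 14 to pass in each of these comparisons, where 7.37% and 8.22% of all genes passed as lower. The medians of the list were -0.03 and 0.02.

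Of 14 interferon ligands, receptors and kinases, 10 were tested and Ifng, Ifnb1, Ifnl2 and Ifnl3 were below the filter, so nothing is said here of these ligands. Ifnar1, a subunit of the type I interferon receptor, was higher on TDD in SPF mice, at 74.2 ± 5.67 against 56.5 ± 4.47 CPM without overlap (SD, n = 5, log2 fold change 0.39, q = 0.000525, edgeR). Ifnar1 was the 1 gene of the 10 to pass there, where 6.65% of all genes passed as higher and 4.68% separated as higher. It was lower with ABX on TDD (-0.32, q = 0.00351, edgeR). Ifnar2, the other subunit, was lower with ABX on CD (-0.44, q = 0.00628) and on TDD (-0.50, q = 0.00305, both edgeR). With ABX, 1 of the 10 tested genes passed as lower on CD and 2 on TDD, where 7.37% and 8.22% of all genes did.

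Of 8 genes listed as receptors or coreceptors for class I on immune cells, 2 were lower on TDD in SPF mice, where 7.71% of all genes were. These were the CD8 beta chain Cd8b1 (-2.33, q = 0.00838, from 1.63 to 10.4 CPM on CD to 0.151 to 1.43 CPM on TDD) and the receptor Cd160 (-0.91, q = 0.0275, both edgeR). With ABX on CD, 4 were lower, Cd8b1 (-4.07, q = 0.00057), Cd8a (-1.84, q = 0.00212), Cd160 (-1.12, q = 0.0101) and Klrc1 (-1.48, q = 0.0186, all edgeR), where 7.37% of all genes passed as lower. Klrc1 lay near the filter of 0.5 CPM, at 0.219 to 1.24 CPM in CD mice and 0.117 to 0.287 CPM in CD+ABX mice. With ABX on TDD, 3 were lower, Lilrb4a (-0.71, q = 0.00236), Klrd1 (-0.70, q = 0.032) and Pirb (-0.55, q = 0.0345, all edgeR), where 8.22% of all genes were. None passed by diet under ABX with edgeR or DESeq2, with 0 at an unadjusted p under 0.05, where 14.7% of all genes had one. Among the T and NK cell markers given above, 1 of 6 was lower on TDD in SPF mice, 5 of 6 with ABX on CD and 3 of 6 with ABX on TDD. Their part in the levels of these genes was not tested.

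Most of the 10 genes also varied together around their group means, pooled over all groups. With the group means removed, Pearson r of each gene with the mean of the other 9 was 0.93 for H2-K1 and H2-D1, 0.91 for Tap2 and Psmb8, 0.89 for B2m, 0.85 for Tap1, 0.82 for Tapbp and 0.80 for Psmb9, over 20 mice. It was 0.56 for Psmb10 and 0.54 for Nlrc5. Without CD mice 2 and 5, the 2 mice furthest from the median, r was lower in each of the 10 genes. It was then 0.24 for Nlrc5, 0.51 for Psmb10, 0.62 for Psmb9, 0.67 for Tap1 and 0.74 to 0.85 for the others. Between single genes, r ran from -0.07 for Psmb10 with Nlrc5 and 0.29 for Tapbp with Nlrc5 to 0.98 for H2-K1 with H2-D1. Genes from outside the list that followed the mean of the 10 closely were H2-T23, the heavy chain Qa-1 (r = 0.94, Spearman rho = 0.88), Sdf4 (0.93, 0.94), Nmi (0.93, 0.90) and Ctss, the protease cathepsin S (0.93, 0.90). Stambp (0.91, 0.89), H2-Q4 (0.90, 0.80) and Saa3 (0.90, 0.79) also followed it. Without CD mice 2 and 5, r for these genes was 0.76 to 0.89. These are descriptions over mice that share tissue makeup and depth within a library, and they carry no test. H2-K1 shares words mainly with H2-D1, H2-Q4 and H2-T23, and the part of the division of reads in their likeness was not tested.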

How the data were processed

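For each mouse, the authors prepared mRNA libraries with oligo d(T) beads, sequenced them on a NovaSeq 6000 and ran kallisto 0.44.0 against a GRCm38 transcriptome. They deposited estimated counts per gene, not normalized, and TPM per transcript. Estimated counts were rounded to whole numbers. All deposited mice were used, whereas the study gives a range of group sizes, so it may have used fewer mice, and which it left out, if any, was not given in the sources used here. Groups came from the sample labels, and whether mice shared cages was not given in the sources used here. TPM of 111362 of 113193 transcripts that matched a GENCODE M21 symbol was summed per gene. A gene was tested where any mouse reached 0.5 CPM, by edgeR 4.0.16 in R 4.3.3 (TMM, glmQLFit with robust shrinkage, glmQLFTest, 4 groups in 1 fit with 16 residual degrees of freedom). The study named iDEP but no test, and its calls also asked for a 2-fold change. The fit was tested on simulated data. Exact permutation tests used scipy 1.17.1. Alternatives were other scalings and filters, DESeq2 1.42.0, limma 3.58.1 (log2(TPM + 1) among them), each mouse left out and a replicate block. Leaving out CD mice 2 and 5 together, the 2 comparisons of both treatments with neither and of each alone, and the fit without robust shrinkage were added after the data were seen. Named were the 10 genes, up to 6 passing genes of smallest q per list and comparison (with Ubd, for a seventh, chosen after its values were seen), and the 8 genes most alike over mice in log2(CPM + 0.5). Of these, 2 genes are not reported here. Members and lists were chosen with earlier results of these data known.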

Additional observations from a re-analysis of the deposited data

Results flagged for a closer look

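In 52 groups of 5 mice, covering the level of each of the 10 genes and the 3 subunit shares, the gap between the most extreme mouse and its nearest neighbour exceeded Dixon's 95% limit in 2, where chance alone gives about 1 in 20 groups. The share of Psmb8 in Psmb8 and Psmb5 was 49.6% in CD+ABX mouse 2, against 44.3 to 45.4% in the other CD+ABX mice. The share of Psmb10 in Psmb10 and Psmb7 was 73.7% in TDD mouse 1, against 61 to 64.7% in the other TDD mice. No difference between the effects of the diet with and without ABX passed the interaction test.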

How the results depend on the processing

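Each comparison had 5 mice a group, so p-values measure the spread between these mice, and the counts below depend on single mice and on how the spread was estimated. The cause was not tested where none is named. With TDD against CD in SPF mice, 6 of the 10 genes passed, against 3 without a filter (more genes tested), 2 when the 2 groups were fitted alone and 0 at a 2-fold minimum, and 3 to 9 with 1 mouse left out. Of all genes, 4.05%, 4.65%, 0.993% and 5.51% to 10.8% passed as lower in these settings, in that order. B2m and Nlrc5 were the calls lost most often. With TDD against CD under ABX, 0 passed, against 1 with upper-quartile scaling, 2 with DESeq2, 3 when fitted alone, 3 without CD mice 2 and 5, and 0 to 2 with 1 mouse left out. The shares of all genes that passed as lower were 1.2%, 1.95%, 0.988%, 1.66% and 0.423% to 1.48%. With ABX against SPF on CD, 5 passed, against 3 when fitted alone, 1 at a 2-fold minimum and 3 to 8 with 1 mouse left out. Among all genes, 5.57%, 1.67% and 5.21% to 9.02% passed as lower in these settings. With ABX against SPF on TDD, 2 passed, against 0 at a 2-fold minimum, which 1.26% of all genes reached as lower genes. For both treatments against neither, 9 passed, against 3 at a 2-fold minimum and 6 to 10 with 1 mouse left out. There, 1.88% and 8.69% to 12.7% of all genes passed as lower. Between TDD alone and ABX alone, 0 passed, against 0 to 1 with 1 mouse left out (1 without TDD mouse 1). Without TDD mouse 1, 1794 of 16289 genes passed as lower and 2278 as higher. The interaction had 0 under all settings run. The other counts stayed within 1.5 times the reported ones.

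Estimates near 0 changed sign. On log2(TPM + 1), ABX on TDD gave 0.05 for H2-K1 and 0.02 for B2m, and the interaction gave 0.06 for Tap2, which was 0.01 without CD mice 2 and 5. The interaction of Psmb8 was -0.01 with upper-quartile scaling and -0.04 with limma-voom. With 1 mouse left out, the ranges that crossed 0 were -0.25 to 0.0 for Nlrc5 by diet under ABX, -0.09 to 0.02 for H2-K1 and -0.13 to 0.02 for B2m by ABX on TDD, and -0.09 to 0.08 for Tap2 and -0.11 to 0.14 for Psmb8 in the interaction. Between TDD alone and ABX alone they were -0.12 to 0.04 for H2-K1 and -0.17 to 0.01 for Tapbp. Not one of these estimates had passed.

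The share of Psmb8 differed by -9.61 points by ABX on CD with counts in place of TPM and then passed. With 1 mouse left out, it differed by -13.1 to -8.28 points in that comparison and by -7.19 to -2.39 points by diet in SPF mice. The share of Psmb10 differed by -10.1 to -6.95 points by diet in SPF mice and by -6.77 to -3.59 points by ABX on TDD. All of these stayed negative, and the calls changed with the mouse left out.

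No pairing of mice by replicate number was seen in the check below, which cannot show whether same-numbered mice shared cages or handling. The correlation of same-numbered mice after removal of group means was -0.44 to 0.32, and the best correlated mouse of the other group had the same number in 9 of 40 cases. With a replicate block, 4 genes passed by diet in SPF mice, 0 by diet under ABX, 5 by ABX on CD, 2 by ABX on TDD and 8 for both treatments against neither, and the interaction of Psmb8 was -0.01 under the block. In the same order of comparisons, 6.02%, 0.454%, 6.18%, 6.99% and 10.3% of all genes passed as lower under the block.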
